A study of Homo sapiens with 9 samples.

Results

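AP-1 is a transcription factor assembled from pairs of basic leucine zipper proteins, and the transcripts of 7 of its subunits are described here in A375P melanoma cells treated with inhibitors of the ERK pathway. The 7 genes are the Jun family members JUN and JUNB, the Fos family members FOS, FOSB, FOSL1 and FOSL2, and ATF3. They were chosen by name from genes with a row that carries their symbol alone, and with the measured pattern in view: JUN was higher and FOSL1 lower with inhibitor. All 7 had exactly 1 such row, among 17047 genes with a row, and all 7 were among the 12785 genes kept after the dimmest 25% were left out. Because the differences between inhibitor and DMSO chose the genes, those differences are given without a test.

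Jun proteins can pair with one another or with Fos proteins, whereas Fos proteins need a Jun partner, and ATF3 can pair with itself or with Jun proteins. The pairs bind short DNA elements known as the TPA response element and the cAMP response element. ERK signalling induces FOS within minutes of a stimulus through factors bound at the serum response element, and it stabilises Fos-family proteins, FOSL1 among them. JUN is activated by the JNK kinases and drives its own gene. In melanoma, subunit composition is known to vary with the state of the ERK pathway.

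A375P is an established human melanoma line that carries a mutant RAF kinase. Its cells received the solvent DMSO, 1 µM PD184352, which inhibits the MEK kinases that activate ERK, or 0.4 µM PLX4720, which inhibits RAF kinases, for 2, 6 or 24 h. The 9 groups are these 3 treatments at these 3 times, all grown in the same serum-containing medium, and each is represented by 1 deposited column of array intensities. The submitters state that experiments were done in triplicate, but not whether columns are single arrays or averages, so no value below has a replicate error. The stated aim of the series is to find direct transcriptional targets of the mutant RAF kinase and MEK.

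Median intensity per column lay between 98.96 and 102.4. Of 8 melanocyte lineage markers, 6 had a row and 5 passed the filter on dim genes, among them MITF, with a log2 level between 9.32 and 10.44, and SOX10, between 9.72 and 10.79. TYRP1, a pigment enzyme, did not pass. The summed intensity of these 6 markers was 3979 to 4311 in DMSO columns and 3850 to 5668 in inhibitor columns. Markers of blood cells did not pass (0 of 2), and 1 of 3 epithelial, 3 of 4 fibroblast and 2 of 3 endothelial markers did, with summed intensities of 291.7 to 333.7, 344.6 to 370.6 and 327.3 to 365.6 in DMSO columns and 304.4 to 344.5, 357.7 to 387.7 and 300.4 to 440.2 in inhibitor columns. No marker was listed at 0 (0 genes). The part of these levels in the results was not tested.

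The promoters of the genes are shown first, because several of them carry elements that AP-1 and related factors can bind. Whether these elements relate to the levels given below was not tested. RefSeq windows of GRCh38.p14, from 250 bases before to 50 bases after a gene's start, were found for 6 of the 7 genes, with 2 windows for ATF3, and not for FOSL1. Both strands were searched for TGACTCA, the TPA response element; TGACGTCA, the full cAMP response element; TGACATCA, the variant known from the JUN promoter; TGACGT, the core that the full cAMP element also contains; and the CArG box, which binds serum response factor. The 250 bases before the start are printed 5′ to 3′ along the gene for the 2 genes that hold TGACATCA, JUN (chr1:58784048-58784297, minus strand) and ATF3 (chr1:212565157-212565406, plus strand), and for 2 that hold TGACGT, FOSL2 (chr2:28392608-28392857, plus strand) and FOS (chr14:75278578-75278827, plus strand). Capitals mark the matches.
JUN: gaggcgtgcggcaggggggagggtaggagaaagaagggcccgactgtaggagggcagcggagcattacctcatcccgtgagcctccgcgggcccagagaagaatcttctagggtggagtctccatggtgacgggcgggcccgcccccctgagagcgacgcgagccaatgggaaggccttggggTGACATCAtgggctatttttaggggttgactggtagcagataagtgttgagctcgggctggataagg
ATF3: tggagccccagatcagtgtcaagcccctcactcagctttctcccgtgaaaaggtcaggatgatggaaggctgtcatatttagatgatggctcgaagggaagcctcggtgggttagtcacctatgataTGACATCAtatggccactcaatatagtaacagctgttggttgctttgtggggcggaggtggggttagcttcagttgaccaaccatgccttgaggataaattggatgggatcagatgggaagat
FOSL2: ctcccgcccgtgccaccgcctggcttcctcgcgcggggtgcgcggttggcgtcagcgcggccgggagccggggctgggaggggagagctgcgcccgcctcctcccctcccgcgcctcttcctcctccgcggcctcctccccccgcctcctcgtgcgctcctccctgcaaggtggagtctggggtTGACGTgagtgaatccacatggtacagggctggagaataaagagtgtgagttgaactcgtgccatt
FOS: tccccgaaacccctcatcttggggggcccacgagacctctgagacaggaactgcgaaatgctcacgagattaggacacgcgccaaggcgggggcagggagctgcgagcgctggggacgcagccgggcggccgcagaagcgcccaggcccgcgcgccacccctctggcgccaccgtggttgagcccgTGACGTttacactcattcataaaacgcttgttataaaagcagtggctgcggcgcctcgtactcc

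TGACATCA lay 67 to 60 bases before the start of JUN and 123 to 116 bases before the first start of ATF3. Of 35116 windows of the same length, 2.61% held it. TGACGT lay 66 to 61 bases before the start of FOSL2, 64 to 59 before that of FOS and 60 to 55 before that of FOSB, and 7.98% of all windows held it. FOSL2 also had the TPA response element just past its start, in gtagTGACTCAtctcgggc, where the capitals mark TGACTCA, a sequence found in 4.95% of windows. The full cAMP element was in 0 of the 7 windows of these genes, against 1.85% of all, and the CArG box in 0, against 1.29%. Sequence further from a start than these windows reach was not searched. The absence of a CArG box from the window of FOS therefore does not show that the gene lacks a serum response element. A match is a run of letters in this window and says nothing of binding in these cells.

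JUN encodes c-Jun, the founding subunit of AP-1. Its intensity at 2, 6 and 24 h was 392, 421 and 399 in DMSO, 326, 433 and 2124 with PD184352, and 374, 416 and 1797 with PLX4720. JUN was thus nearly level in DMSO. From 2 h to 6 h it moved by 0.41 (log2) with PD184352 and by 0.15 with PLX4720. The 24 h inhibitor columns stood far above the other 7. Against DMSO of the same time, the log2 difference was −0.27 with PD184352 and −0.07 with PLX4720 at 2 h, 0.04 and −0.02 at 6 h, and 2.41 and 2.17 at 24 h. The last pair corresponds to 5.31 and 4.49 times the DMSO level. In these whole cultures, more cells with the transcript and more transcript per cell cannot be told apart. Of 12785 genes, 5, JUN included, had a mean difference as high at 24 h. This rank is a description and no test, since the same difference was in view when JUN was chosen. Between 2 h and 24 h the log2 level of JUN moved by 0.03 in DMSO, by 2.70 with PD184352 and by 2.26 with PLX4720.

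JUNB encodes a Jun protein that is a weaker activator than c-Jun at many sites. Its intensity was 521, 559 and 567 in DMSO at 2, 6 and 24 h, 360, 468 and 493 with PD184352, and 414, 447 and 491 with PLX4720. All 6 inhibitor columns were below all 3 DMSO columns. The gap narrowed with time: the mean log2 difference of both inhibitor columns was −0.43 at 2 h, −0.29 at 6 h and −0.20 at 24 h. At 24 h, then, JUN was above DMSO and JUNB slightly below it.

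FOSL1 encodes FRA-1, a Fos-family protein without the strong activation domain of c-Fos. Its intensity at 2, 6 and 24 h was 1264, 1264 and 687 in DMSO, 756, 397 and 290 with PD184352, and 763, 422 and 327 with PLX4720. The inhibitor columns were lower than the DMSO column at each time, and they also went down in time order. The log2 difference from DMSO was −0.74 with PD184352 and −0.73 with PLX4720 at 2 h, −1.67 and −1.58 at 6 h, and −1.24 and −1.07 at 24 h. At 6 h DMSO was 3.18 and 2.99 times the inhibitor levels.

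The smaller difference of FOSL1 at 24 h than at 6 h went with a lower DMSO column, not with a higher inhibitor level. The log2 level of 24 h minus that of 2 h was −0.88 in DMSO, a difference as low as in 8 of 12785 genes, FOSL1 included. A 2-fold difference in either direction between these DMSO columns, which FOSL1 did not reach, was seen in 0.0469% of genes. The same difference in time was −1.38 with PD184352 and −1.22 with PLX4720. With the mean of the 3 DMSO columns as control, the mean difference of both inhibitor columns was −0.44, −1.33 and −1.74 at 2, 6 and 24 h, in place of −0.73, −1.62 and −1.15, and was then furthest from 0 at 24 h. A second row, which names FOSL1 together with the gene LARP1B, was left out.

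FOSL2 encodes FRA-2, the closest relative of FRA-1. Its intensity was 530, 542 and 394 in DMSO at 2, 6 and 24 h, 491, 823 and 1404 with PD184352, and 577, 793 and 1109 with PLX4720. The columns were close at 2 h, and both inhibitor columns were above DMSO at 6 h and further above it at 24 h. The log2 difference was −0.11 with PD184352 and 0.12 with PLX4720 at 2 h, 0.60 and 0.55 at 6 h, and 1.83 and 1.49 at 24 h. FOSL2 was above DMSO already at 6 h, when JUN was at the DMSO level. In DMSO its log2 level of 24 h minus that of 2 h was −0.43, and with the mean of the 3 DMSO columns as control the mean differences were 0.14, 0.74 and 1.37 at 2, 6 and 24 h, in place of 0.01, 0.58 and 1.66. The closely related FOSL1 and FOSL2 thus lay on opposite sides of DMSO at 6 and 24 h.

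FOS encodes c-Fos, a classical immediate-early gene product. Its intensity was 221, 208 and 213 in DMSO, 168, 153 and 255 with PD184352, and 173, 142 and 197 with PLX4720. It was below DMSO in both inhibitor columns at 2 h, by −0.39 and −0.35 (log2), and at 6 h, by −0.45 and −0.55. At 24 h the compounds stood on opposite sides of DMSO, at 0.26 with PD184352 and −0.11 with PLX4720. The mean at 24 h was 0.07, and it was −0.11 without the PD184352 24 h column.

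FOSB, which encodes another Fos protein with a strong activation domain, spanned the smallest log2 range of the 7 genes over the 9 columns, 0.40. Its intensity was 195, 191 and 186 in DMSO, 179, 148 and 150 with PD184352, and 188, 152 and 162 with PLX4720. Both inhibitor columns were below DMSO at each time, with mean log2 differences of −0.08, −0.35 and −0.25 at 2, 6 and 24 h (−0.06 at 2 h against the mean of the 3 DMSO columns).

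ATF3 encodes a stress-induced subunit that can act as a repressor. Its intensity was 151, 109 and 125 in DMSO, 174, 141 and 205 with PD184352, and 194, 141 and 158 with PLX4720. At each time both inhibitor columns were above DMSO, with mean log2 differences of 0.28, 0.36 and 0.52. At 24 h the difference was 0.70 with PD184352 and 0.34 with PLX4720. With the mean of the 3 DMSO columns as control the 3 mean differences were 0.53, 0.14 and 0.50, so their order in time depended on the control. The ranges over all times nevertheless overlapped, since DMSO at 2 h was above both inhibitor columns at 6 h. ATF3 had the lowest mean level of the 7 genes, so the added constant of 1 and background signal weigh most on it.

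**Figure D1:**
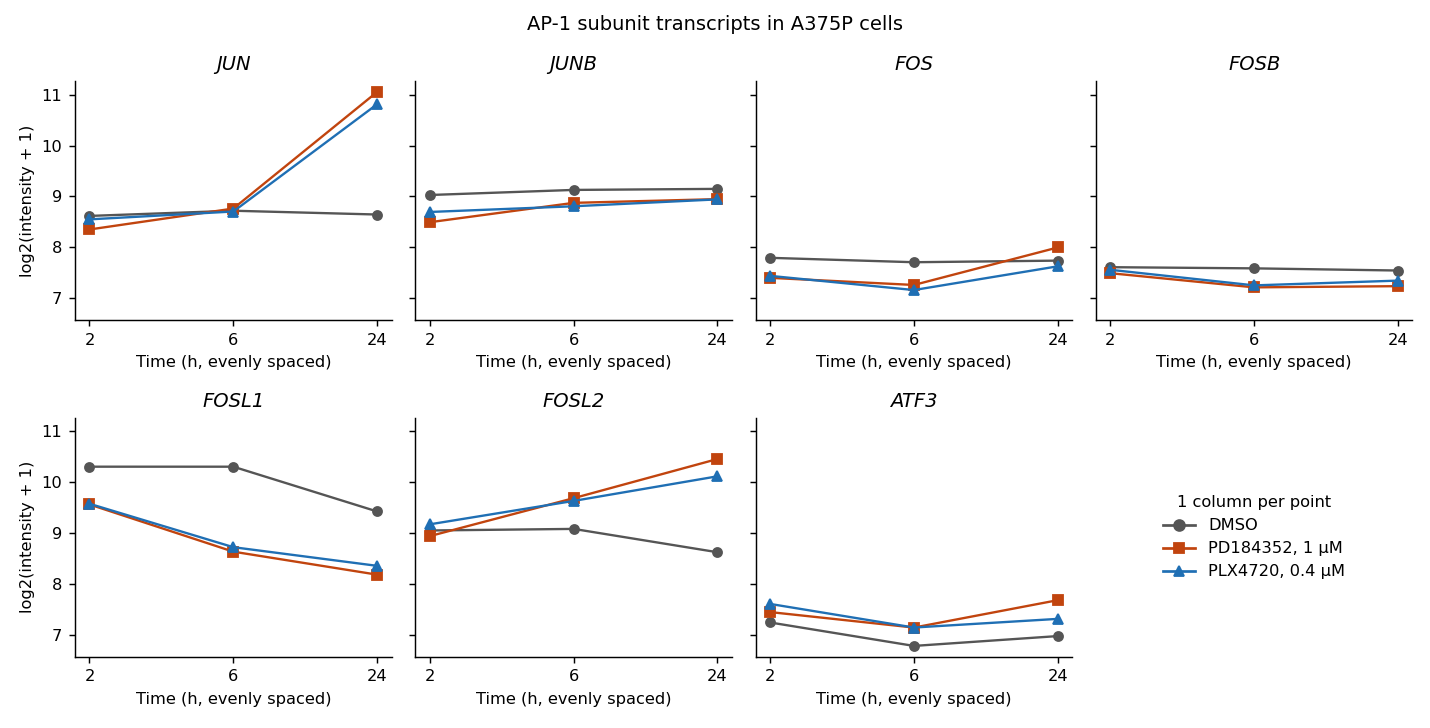
The vertical axis gives log2(intensity + 1) and the horizontal axis the time in h (evenly spaced, not to scale) for each of 7 genes; each point is 1 deposited column, grey for DMSO, orange for PD184352 and blue for PLX4720. JUN leaves the DMSO line at 24 h, FOSL2 leaves it upward from 6 h, and FOSL1 lies below it at every time while DMSO itself is lower at 24 h.

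By time, 5 of the 7 genes were below DMSO in both inhibitor columns at 2 h and 1, ATF3, was above. At 6 h 4 were below and 2, FOSL2 and ATF3, above. At 24 h 3 were below (JUNB, FOSB and FOSL1) and 3 above (JUN, FOSL2 and ATF3). The median of the 7 mean differences was −0.17, −0.29 and 0.07 (log2), where the median of all 12785 genes was −0.02, −0.02 and −0.01. A 2-fold difference in both inhibitor columns was reached by 0 of the 7 at 2 h, by FOSL1 at 6 h, and by JUN, FOSL2 and FOSL1 at 24 h. Among all genes that share was 0.0313% at 2 h, 0.329% at 6 h and 3.28% at 24 h. Nothing is read from these counts, since the same differences chose the genes. Both compounds share the DMSO column of each time, so their equal directions are not independent of each other.

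**Figure D2:**
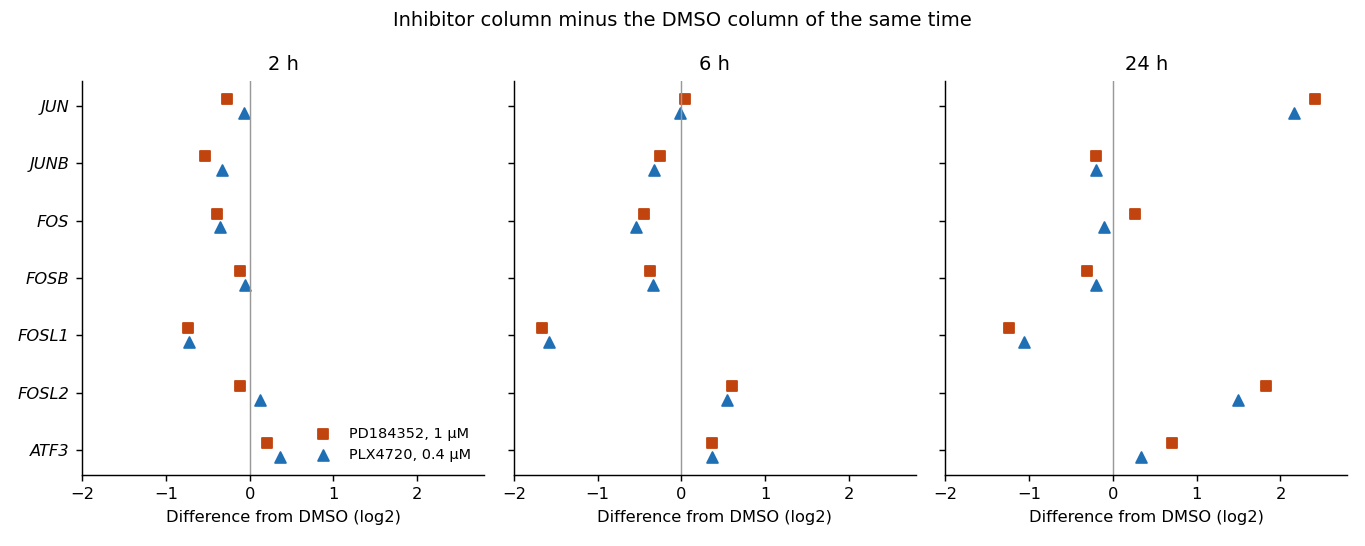
The horizontal axis gives the log2 difference between an inhibitor column and the DMSO column of the same time, in 1 panel per time; orange squares are PD184352 and blue triangles PLX4720, 1 column each. At 24 h JUN lies at 2.41 and 2.17, FOSL2 at 1.83 and 1.49 and FOSL1 at −1.24 and −1.07.

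The genes were not chosen for a difference between the compounds, and this difference was tested. The values of each compound were in view, however, and the pattern that chose the genes was one that both compounds share. The result for the 7 genes is therefore not independent of their choice. PD184352 was given at 1 µM and PLX4720 at 0.4 µM, so the test compares these doses, and it covers 1 pair of compounds. The limma fit used the 6 inhibitor columns with time as a block. With 1 column per compound and time, its spread is how the gap between the compounds varied over the times. limma then draws a gene's own spread toward that of all genes, and the intervals use this moderated spread. The intervals and p-values therefore do not measure the spread between cultures. None of the 7 genes passed, and neither did any of the 12785 genes (0% called; 556 genes, or 4.35%, had an unadjusted p below 0.05). PD184352 minus PLX4720 was 0.03 for JUN (95% interval −0.14 to 0.21), −0.09 for FOSL1 (−0.23 to 0.05), 0.05 for FOSL2 (−0.14 to 0.25) and 0.14 for FOS (−0.03 to 0.32). It was −0.04 for JUNB (−0.20 to 0.11), −0.07 for FOSB (−0.21 to 0.07) and 0.07 for ATF3 (−0.12 to 0.26), with an adjusted p of 1.00 in limma for all 7. For JUN, FOSL2 and ATF3 the sign differed between times: it was negative at 2 h (−0.20, −0.23 and −0.16) and positive at 24 h (0.24, 0.34 and 0.37). The same turn was seen for FOS (−0.04 and 0.37) and JUNB (−0.20 and 0.005), while FOSL1 and FOSB were negative at each time. Without either 24 h inhibitor column, the mean differences of JUN, FOSL2 and ATF3 turned to −0.07, −0.09 and −0.08. For JUN, FOSL2 and ATF3 the differences at 2 h and at 24 h both lay outside the interval of the mean. A p above the threshold does not show that the compounds act alike. The intervals describe the mean difference of these columns over the 3 times and set no bound for other cultures.

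**Figure D3:**
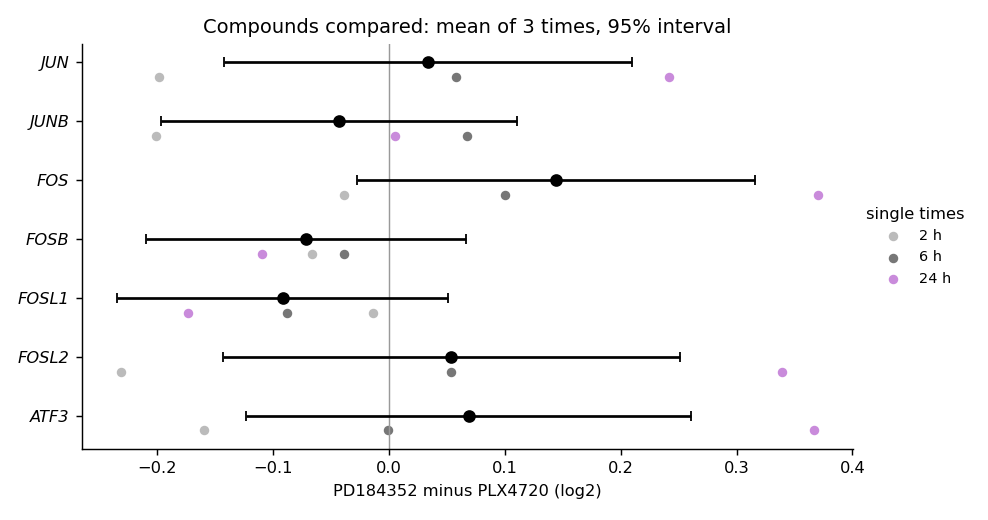
The horizontal axis gives PD184352 minus PLX4720 in log2 units; black points with bars are the mean of 3 times with its 95% interval from limma, and the smaller points below are the single times. All 7 intervals include 0.

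Among the 1049 tested genes that span at least 1 log2 unit over the 9 columns, those with the highest Pearson correlation to JUN were GRIK2 (r = 0.997), ZNF536 (0.997), CTSK (0.996), ITGA2 (0.995) and TNS2 (0.995). These correlations are over the 9 columns, all of which share the same arrays and scaling, and are a description. Those with JUN rest largely on the 24 h inhibitor columns, where JUN stood far above its other values. They say little about likeness among the remaining columns. ITGA2, the collagen receptor subunit, had a log2 level of 8.29, 8.70 and 8.33 in DMSO at 2, 6 and 24 h, 8.03, 8.35 and 10.91 with PD184352, and 8.28, 8.42 and 10.77 with PLX4720. Like JUN, it stood apart in the 24 h inhibitor columns alone. To FOSL1 the closest were TFAP2C (0.977), MFSD2A (0.974), the growth factor gene TGFA (0.964), RNF43 (0.961) and RNF182 (0.961). For FOSL2 they were SLC25A29 (0.988) and GAS6-AS1 (0.985), and for FOSB TNFRSF21 (0.972) and the ERK pathway inhibitor SPRED2 (0.968). JUNB (PHLDA1 at 0.852 and PPM1K at 0.824), FOS (FBXO32 at 0.853 and EHBP1 at 0.850) and ATF3 (CSRP2 at 0.774 and CITED1 at 0.698) had no gene as close.

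Within the 7 genes, which were chosen in part for their pattern, r over the 9 columns was 0.86 between JUN and FOSL2, −0.70 between JUN and FOSL1, −0.82 between FOSL1 and FOSL2, and 0.91 between FOSL1 and FOSB. The last pair kept to the same side of DMSO at each time, although FOSB moved over a far smaller range.

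**Figure D4:**
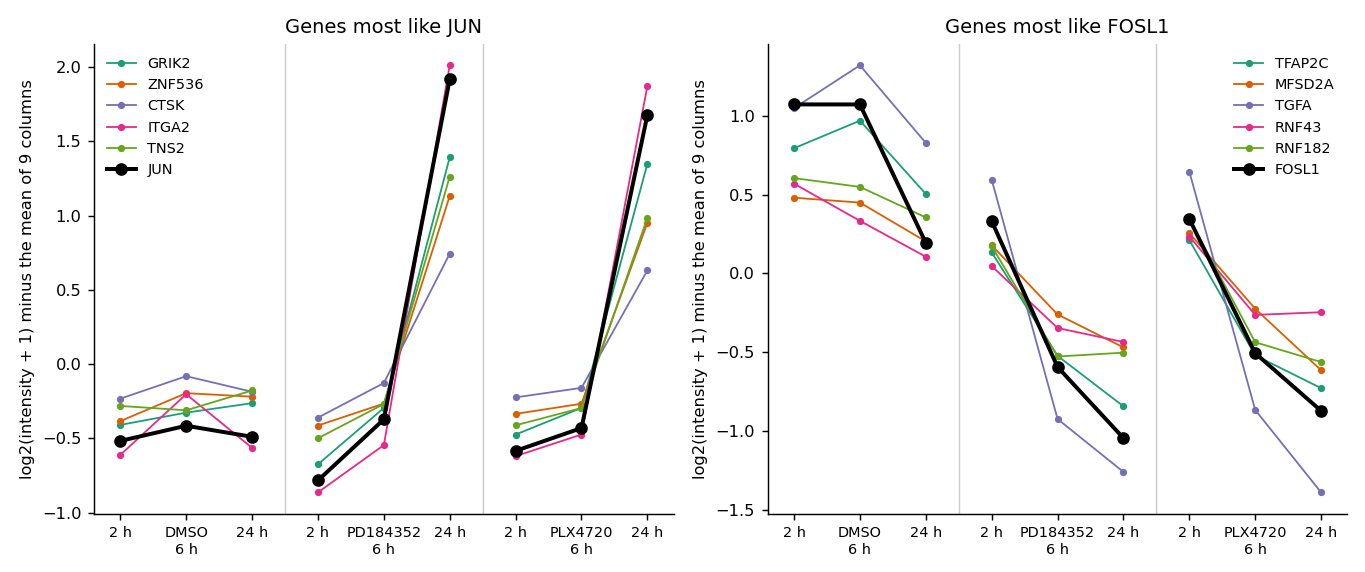
The vertical axis gives log2(intensity + 1) minus a gene's own mean over the 9 columns, which stand in order of treatment and time along the horizontal axis; black is JUN (left) or FOSL1 (right) and colours are the 5 genes most like it. In the left panel all 6 genes stand highest in the inhibitor columns of 24 h, and in the right panel all 6 are lower in the inhibitor columns of 6 h and 24 h than in DMSO at 2 h.

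Genes around AP-1 that are not among the 7 were tested in limma, with both inhibitors against DMSO at each time and Benjamini-Hochberg adjustment over 12785 genes. In this fit the spread is that between the 2 compounds at a time, drawn by limma toward that of all genes. The p-values therefore do not measure the spread between cultures. The 5 lists held 138 genes; 116 had a row and 105 passed the filter and were tested. At 2 h 0 of the 105 were called by limma (16 at an unadjusted p below 0.05), against 0.086% of all genes. At 6 h 13 fell and 0 rose, which is 12.4%, against 3.29% of all genes. Calls at 6 h were mostly falls among all genes too, with 350 lower and 70 higher. The lists were drawn up with earlier results of these data known. At 24 h 26 fell and 15 rose, which is 39%, against 31.6% of all genes, of which 19.2% fell and 12.5% rose. After quantile normalization the 24 h split was 21 lower and 25 higher among the 105, and 2172 lower and 2241 higher among all genes. The balance of falls and rises at 24 h thus depended on the scaling.

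Of 27 tested dimer partners, basic leucine zipper genes whose proteins can pair with Jun, Fos or ATF proteins, 6 fell and 2 rose at 24 h, with a median change of 0.02 (log2). That is 29.6% called, against 31.6% of all genes. CEBPG, a C/EBP partner, fell by 1.01 (SE 0.10) and MAFF, a small Maf protein gene, fell by 0.81 (SE 0.11), while MAF rose by 0.83 (SE 0.12). JUND, the remaining Jun family gene, named after its value was seen, was at 8.91 in DMSO, 9.21 with PD184352 and 9.26 with PLX4720 at 24 h. Its change of 0.32 (SE 0.10, limma adjusted p = 0.0306) passed, but not without the PLX4720 24 h column (adjusted p = 0.0771) or with no filter on dim genes (adjusted p = 0.0515). The 3 partners that fell at 6 h, named after their values were seen, were MAFF (−0.95, SE 0.11), BACH1 (−0.47, SE 0.11) and CEBPB (−0.38, SE 0.09). With no filter on dim genes, and after quantile normalization, BACH1 and CEBPB were not called at 6 h. BACH1 was also not called with the mean of all rows of a gene. BACH1 and CEBPB lost the call without any 1 of the 4 inhibitor columns of 2 h and 6 h, with an adjusted p of 0.0556 to 0.218.

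The list of genes around the JNK and p38 stress kinases comprised 25 tested genes, of which 5 rose and 5 fell at 24 h. Not all of them act on JUN. The upstream kinase gene MAP3K12 rose by 0.74 (SE 0.10) and the stress gene GADD45B by 0.59 (SE 0.09), while the kinase gene MAP3K20 fell by 0.57 (SE 0.12). The JNK gene MAPK8, named after its value was seen, was among the genes that fell (−0.44, SE 0.11). The share called was 40%, against 31.6% of all genes. At 6 h 2 of the 25 fell, MAP3K1 (−0.91, SE 0.13) and MAP2K3 (−0.69, SE 0.09), both kinase genes and named after their values were seen. The median change of the list was −0.05 at 24 h.

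Of 15 tested regulators of the FOS gene, 6 fell and 2 rose at 24 h, with a median of −0.22. Calls made up 53.3% of this list, against 31.6% of all genes. RPS6KA5, a kinase that ERK and p38 activate and that phosphorylates CREB, fell by 1.01 (SE 0.12). The related factor genes ETS1 and ETS2 moved apart: ETS1 rose by 0.76 (SE 0.10) and ETS2 fell by 0.76 (SE 0.12). At 6 h 2 fell, ELK3 (−1.11, SE 0.11), which encodes a ternary complex factor that pairs with serum response factor, and RPS6KA5 (−0.83, SE 0.12), both named after their values were seen.

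Of 11 tested genes that act on the turnover of Jun and Fos proteins, 2 fell at 24 h and 0 rose, which is 18.2%, against 31.6% of all genes. TRIB1, a pseudokinase that brings substrates to the ubiquitin ligase COP1, fell by 1.12 (SE 0.12) and the ligase scaffold CUL4A by 0.36 (SE 0.09). At 6 h 2 fell, TRIB1 (−0.80, SE 0.12) and TRIB2 (−0.85, SE 0.15), named after their values were seen. TRIB2 lost the call without the PD184352 6 h column (adjusted p = 0.0532) and after quantile normalization (adjusted p = 0.0563).

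Of 27 tested genes that are widely described as AP-1 targets, 6 rose and 7 fell at 24 h, with a median of 0.01. Together these calls are 48.1% of the list, against 31.6% of all genes. The list was drawn up with earlier results of these data known, among them those of ITGA2 and CCND1. ITGA2 rose by 2.51 (SE 0.11), while cyclin D1 (CCND1) fell by 1.80 (SE 0.16) and cyclin A2 (CCNA2) fell by 1.44 (SE 0.11). At 6 h 4 of the 27 fell and none rose: CCND1 (−1.45, SE 0.16), the chromatin gene HMGA2 (−0.71, SE 0.13), the growth factor gene VEGFA (−0.70, SE 0.09) and PLAUR, the urokinase receptor gene (−0.57, SE 0.10), again named after their values were seen. HMGA2 lost the call without any 1 of the 4 inhibitor columns of 2 h and 6 h (adjusted p 0.0503 to 0.0798), and PLAUR without the PLX4720 6 h column (adjusted p = 0.0714). HMGA2 was also not called at 6 h with no filter on dim genes. Genes of this list thus lay on both sides of DMSO at 24 h, as the 7 subunits did, and no test links them to those subunits.

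**Figure D5:**
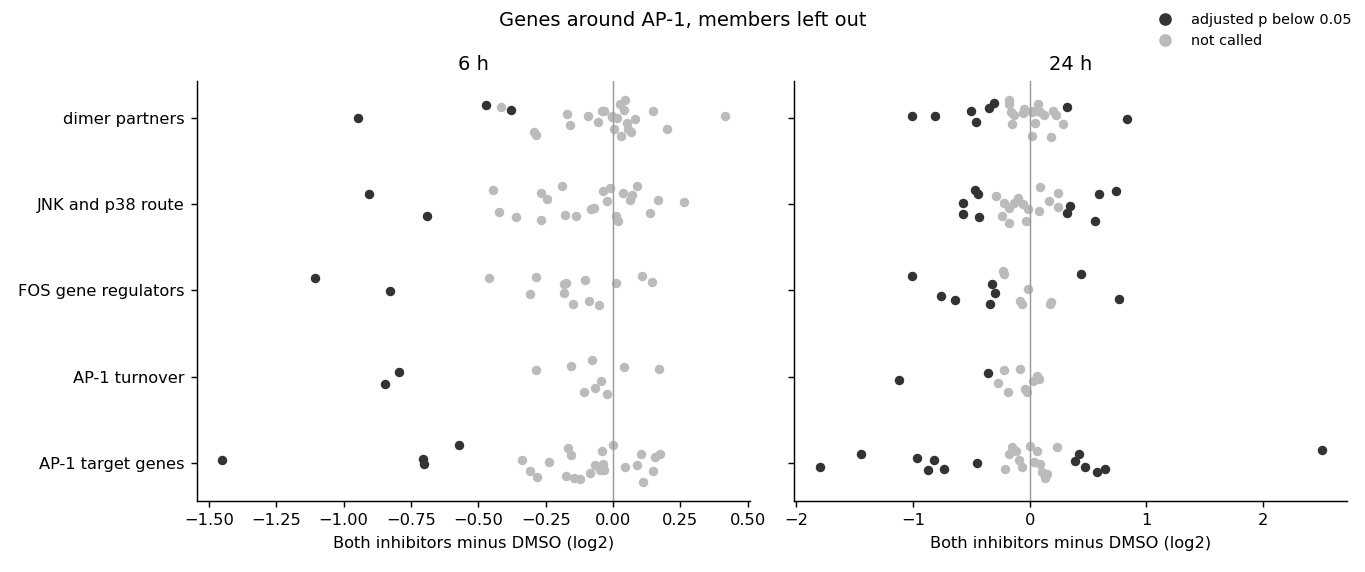
The horizontal axis gives the log2 change of both inhibitors against DMSO at 6 h (left) and 24 h (right), with 1 point per tested gene in each of 5 lists; dark points passed limma at an adjusted p below 0.05 and points are spread vertically at random. At 6 h all 13 dark points lie below 0, and at 24 h 26 lie below and 15 above.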

How the data were processed

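The authors' deposited table holds 1 column of array intensities on a linear scale for each treatment and time. The submitters' processing notes list the tools RMA, limma and R 2.8.0, with no word on their use; the build of the genome is not stated there. From these intensities log2(value + 1) was computed, which understates differences of dim genes, and no further normalization was applied. Of 35446 rows, 19380 carried 1 gene symbol in the platform table, and for a gene with several rows the row with the highest mean log2 value was used. The 4262 genes with the lowest means were left out.

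limma 3.58.1 in R 4.3.3 was fitted to all 12785 remaining genes with Benjamini-Hochberg adjustment and a threshold of 0.05. One fit compared both inhibitors with DMSO at each time (residual degrees of freedom 3), and the other PD184352 with PLX4720 with time as a block (residual degrees of freedom 2). On simulated data with 12785 genes, the first recovered 34% of genes changed by 0.5 at 24 h and 94% of those changed by 1 (log2), and the second 57% and 92%. For arrays, their number limits the precision.

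The members and lists were chosen with earlier results of these data known. Genes were named by rule: all 7 members, per list the 3 largest called changes at 24 h and all calls at 2 h, and the genes most correlated with JUN and FOSL1 (5 each) and with the other members (2 each). Sequences are RefSeq's, from GRCh38.p14. The alternatives were another pseudocount, filter, scaling, row choice and control, and each column left out.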

Additional observations from a re-analysis of the deposited data

Results flagged for a closer look

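JUN stood on opposite sides of DMSO at different times. Its mean log2 difference from DMSO was −0.17 at 2 h, with both inhibitor columns lower, and 2.29 at 24 h, with both higher. The difference between the times was not tested, since these values chose the gene, and the 2 h differences were small.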

How the results depend on the processing

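The count of genes called at 2 h was 11, and 23 with a pseudocount of 16, 1 with no filter on dim genes, 35 with 50% of genes left out, 0 after quantile normalization, 21 with a filter on the mean intensity (an alternative chosen after seeing the data), and 0 to 95 with single columns left out. Listed genes called at 2 h numbered 0, and 2, 1, 1 and 2 with the pseudocount of 16, 50% left out, the mean of all rows and the filter on the mean intensity, and 0 to 4 with columns left out. At 6 h the 420 calls became 253 with no filter and 205 to 801 with columns left out (205 without PD184352 6 h, 212 without PLX4720 6 h, 801 without either 24 h inhibitor column), and the 13 listed genes 9 to 19 (18 lower and 1 higher without either 24 h inhibitor column). At 24 h the counts of 4045 and 41 stayed within 1.5 times of their value. Between the compounds the count of 0 became 24 with 50% left out, 25 without either 6 h and 5 without either 24 h inhibitor column (range 0 to 25). None of the 7 subunits was among these calls, but ATF3 was not tested with 50% of genes left out. The cause was not tested.

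Signs of subunits turned where a value was near 0. With single columns left out, PD184352 minus PLX4720 ran from −0.098 to 0.036 for JUNB (highest without either 2 h inhibitor column), and, lowest without either at 24 h, from −0.070 to 0.150 for JUN, −0.089 to 0.197 for FOSL2 and −0.080 to 0.183 for ATF3. The difference from DMSO ran from −0.015 (without PD184352 6 h) to 0.043 for JUN at 6 h, from −0.112 (without PD184352 24 h) to 0.259 for FOS at 24 h and from −0.110 (without PLX4720 2 h) to 0.121 for FOSL2 at 2 h. The labels give no replicate numbers, so no replicate block was fitted; between the compounds the columns were paired by time, and the fit of all 9 columns with treatment and time also called 0 genes.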
